A study of Mus musculus with 6 samples.

Results

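The zinc finger genes that the array lists as Zfp and a number were followed in malignant epithelial cells of a mouse pancreatic carcinoma after inhibition of DNA methylation. A gene was counted here when its array name was Zfp followed by digits only and a probe had a detection p under 0.05 on at least 3 of the 6 arrays, and the probe with the highest mean intensity stood for it. Of 282 such names on the array, 214 met the rule, among 14952 names in the whole table that passed the same filter. The genes were thus chosen by name and selected on their detection p-values and intensities, which are given below only as a description. By RefSeq, 190 of the 214 carried a current symbol, 23 were synonyms of a single current gene and 1, Zfp67, matched neither. Of the 214, 194 are still called Zfp, and some of the others are not classical finger genes, such as Zfp162 (now Sf1, a splicing factor), Zfp294 (now Ltn1, a ubiquitin ligase of stalled ribosomes) and Zfp313 (now Rnf114, a ubiquitin ligase).

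The cells came from a short explant culture of the tumour of a KPC-Brca1 mouse. The labels do not spell out KPC, its alleles or the Brca1 allele, and all plates come from the same kind of culture. The untreated group was 3 plates without drug, and the DAC group was 3 plates kept for 48 h in decitabine (5-aza-dC, here DAC) at 0.5 µM, a nucleoside that enters DNA during replication and holds methyltransferases there, so that methylation is lost. The labels name no separate tumours or animals, so the p-values here rest on plate-to-plate spread, part or all of which may be technical. RNA levels were read on Illumina bead arrays and are given as log2 signal after background correction and quantile normalization, unless another scale is named.

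Most mouse Zfp genes encode proteins whose C2H2 fingers, each folded around a zinc ion, read short stretches of DNA, and some bind RNA. Many of them carry a KRAB domain, which recruits the corepressor Trim28 and, through it, the histone methyltransferase Setdb1, so that the bound site, often a retroelement or an imprinted region, is held in silent chromatin. Such genes lie in clusters that arose by repeated duplication. DNA methylation and KRAB zinc finger proteins share many targets, which makes the genes themselves of interest when methylation is lowered.

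The 6 arrays had mean intensities from 313.2 to 460, and each detected between 43.9% and 47.4% of 45281 probes. The median Zfp probe was read from 41 to 42 beads per array. Untreated plate 1 stood apart from its group, with differences from untreated plates 2 and 3 of 21.9 and 25.9 times the bead variance. From DAC plates 1, 2 and 3 it differed by 27, 16.6 and 17.5 times that variance. By that measure it lay nearer to DAC plates 2 and 3 than to its own group. By Pearson correlation of log2 values it lay nearer to its own group. The correlation was 0.9812 and 0.98 with untreated plates 2 and 3, and 0.9659, 0.9696 and 0.971 with DAC plates 1 to 3. Over the Zfp genes the median absolute difference of untreated plate 1 was 0.278 and 0.341 log2 from untreated plates 2 and 3. From DAC plates 1 to 3 it was 0.308, 0.254 and 0.217. Untreated plates 2 and 3 differed by 1.71 times the bead variance and were kept as separate samples. For 40 Zfp genes (18.7%) untreated plate 1 lay at least 0.5 log2 from the mean of untreated plates 2 and 3, against 20.9% of all names tested. Counts of calls below are therefore also given without this plate for each list, run and family. In the fit without it 17.2% of all names rose and 15.4% fell. Its untreated spread comes only from plates 2 and 3, the closest pair of the 6 arrays. The SE and adjusted p-values of that fit may thus be too small. The label of epithelial cells was checked against markers: 7 of 8 epithelial markers were detected (Krt7, Krt8, Krt18, Krt19, Cdh1, Cldn4 and Cldn7), and Epcam was not. Cldn4 rose by 1.75 ± 0.12 log2, Krt7 fell by 0.47 ± 0.13 and the other 5 did not pass. Their summed linear signal was 26073 to 31528 on untreated and 30336 to 34234 on DAC plates. Of the fibroblast markers 2 of 9 were detected, Col1a1 and Pdgfra. Col1a1 rose by 2.22 ± 0.25 log2 and Pdgfra did not pass, at 0.27 ± 0.21. Their summed linear signal was 217 to 308 on untreated and 873 to 1375 on DAC plates. Col1a2, Col3a1, Dcn, Lum, Pdgfrb, Thy1 and Fap were not detected. Among leukocyte markers 2 of 7 on the array were detected, Cd68 and Laptm5 (summed linear signal 224 to 258 untreated, 303 to 401 with DAC). Laptm5 was detected on 0 untreated and 3 DAC plates and rose by 2.45 ± 0.16, while Cd68 did not pass, at 0.09 ± 0.13. Ptprc, Adgre1, Csf1r, Itgam and Cd3e were not detected. The endothelial markers showed 1 of 6, Esam (29 to 34 untreated, 61 to 80 with DAC), which rose by 1.14 ± 0.14. Pecam1, Cdh5, Kdr, Tek and Tie1 were not detected. Acinar and islet markers showed 3 of 8, Cela1, Ins1 and Gcg (499 to 595 untreated, 592 to 672 with DAC), which did not pass. Cpa1, Cela2a, Amy2a5, Ptf1a and Ins2 were not detected. The part of these markers' cell types in the Zfp results was not tested. In such bulk samples fewer cells of a type and less RNA per cell cannot be told apart.

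Of the 214 Zfp genes, 10 rose and 13 fell after DAC at an adjusted p under 0.05 (limma, Benjamini-Hochberg over all 14952 names), and 191 did not pass. That is 10.7% of the Zfp genes, where 16.8% of all names tested were called. By direction 4.67% of the Zfp genes rose, against 9.66% of all names, and 6.07% fell, against 7.10%. The median log2 fold change, DAC minus untreated, was -0.07 over the Zfp genes, with quartiles at -0.26 and 0.13, and -0.02 over all names, with quartiles at -0.24 and 0.21. Changes of 0.5 log2 or more in size, called or not, were seen for 21 Zfp genes (9.81%), against 17.9% of all names. The range ran from -0.82 for Zfp30 to 1.31 for Zfp365, whereas all names reached from -2.39 to 6.69. Only 2 of the 214 Zfp genes rose at least 2-fold and 0 fell as far in this limma fit. Of all 14952 names 515 rose and 61 fell by that much. An unadjusted p under 0.05 (limma) was found for 57 of the 214 Zfp genes and for 4722 of the 14952 names. A rank of genes by level was not made, since signals of different probes cannot be compared.

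**Figure D1:**
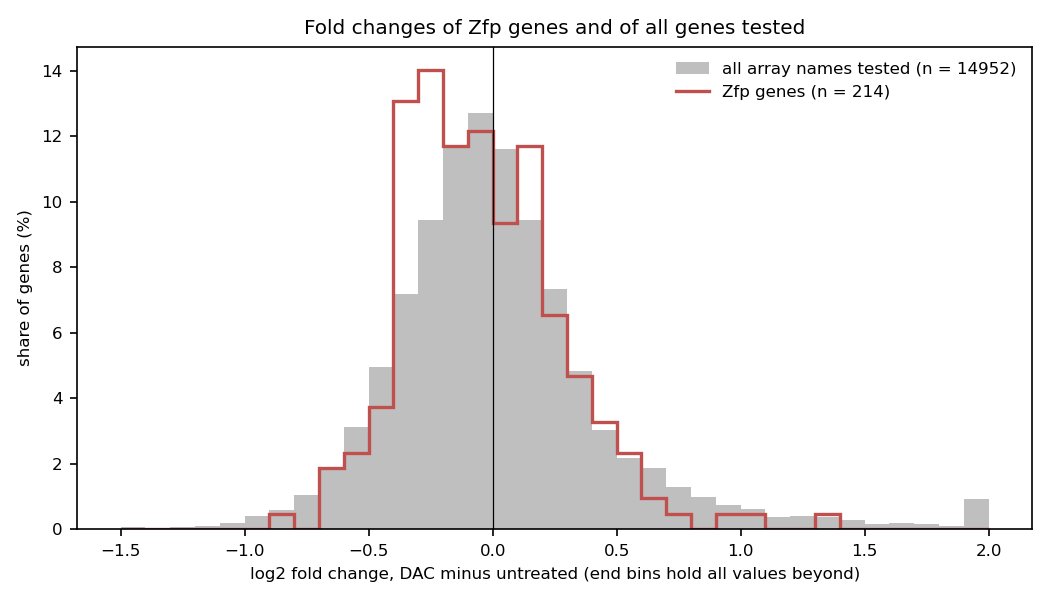
Share of genes (%) in each 0.1-wide bin of log2 fold change, DAC minus untreated, for the 214 Zfp genes (red outline) and for all 14952 names tested (grey). The end bins hold every value beyond them, which is where all names reach far to the right, while the farthest Zfp gene, Zfp365, lies at 1.31.

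Without overlap between the groups, 24 Zfp genes were higher on all 3 DAC plates (17.1% of all names tested were) and 47 were lower on all 3 (18.8% of all names). As shares of the 214 these were 11.2% and 22.0%. The number of calls hung on single plates. Without untreated plate 1, which stood apart, 27 Zfp genes rose and 30 fell, 26.6% of them, where 32.5% of all names were called. With untreated plate 2 left out 4 rose and 2 fell (2.80%, against 8.50% of all names called), and without untreated plate 3 it was 4 and 3 (3.27% against 9.10%). Without DAC plate 1 it was 8 and 4 (5.61% against 12.8%), without DAC plate 2 it was 4 and 4 (3.74% against 8.19%) and without DAC plate 3 it was 5 and 5 (4.67% against 9.22%). Median scaling gave 4 rises and 11 falls, so that rises made up 26.7% of the Zfp calls in place of 43.5%, and cyclic loess gave 12 and 9, or 57.1%. Under median scaling the median of all names moved from -0.02 to -0.13, and that of the Zfp genes from -0.07 to -0.16.

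The largest rise was that of Zfp365, whose human counterpart ZNF365 is known for keeping fragile sites and telomeres stable. Its log2 signal was 5.24, 5.36 and 5.38 on untreated plates 1 to 3 and 6.75, 6.66 and 6.50 on DAC plates 1 to 3. The 3 DAC plates were close to each other and far above the untreated ones. The rise was 1.31 ± 0.12 log2 (SE, n = 3 per group; adjusted p = 0.000226, limma), and the probe was the only one for this gene. Zfp296, a gene of embryonic stem cells known for a part in reprogramming, read 5.24, 5.07 and 4.95 untreated and 5.87, 6.14 and 6.52 with DAC. DAC plates spread more here, yet the lowest of them lay above the highest untreated plate. It rose by 1.09 ± 0.18 (adjusted p = 0.00488), and its second detected probe rose too, by 0.62.

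The bases upstream of these 2 genes are shown because they rose most among the Zfp genes and DAC lowers methylation at CpG sites. Each is the 250 bases before the RefSeq gene start (GRCm38.p6), 5′ to 3′, with every CpG in capitals, and no methylation was measured here.
Zfp365 (chr10:67912663-67912912, minus strand): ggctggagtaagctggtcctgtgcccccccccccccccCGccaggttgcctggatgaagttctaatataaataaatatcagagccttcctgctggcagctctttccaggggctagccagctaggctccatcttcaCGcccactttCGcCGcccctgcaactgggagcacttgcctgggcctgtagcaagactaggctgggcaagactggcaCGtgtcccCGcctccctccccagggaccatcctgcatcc
Zfp296 (chr7:19577037-19577286, plus strand): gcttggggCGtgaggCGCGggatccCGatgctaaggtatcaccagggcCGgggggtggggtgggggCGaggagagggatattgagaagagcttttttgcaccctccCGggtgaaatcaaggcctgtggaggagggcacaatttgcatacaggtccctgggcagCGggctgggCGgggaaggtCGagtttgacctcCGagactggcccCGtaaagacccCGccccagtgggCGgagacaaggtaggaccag
The stretch of Zfp365 holds 6 CpG and that of Zfp296 holds 14.

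Zfp37, a KRAB zinc finger gene known in mouse for its expression in testis, was measured at 7.75, 7.56 and 7.60 on the untreated plates and 8.59, 8.72 and 8.51 on the DAC plates. Its groups were apart by several times their spread, with a rise of 0.97 ± 0.12 (adjusted p = 0.00124). Zfp367, whose human counterpart ZNF367 is known as an activator of globin genes in erythroid cells, had 7.58, 7.58 and 7.63 untreated against 8.36, 8.34 and 8.43 with DAC. These were the tightest groups among the risen genes named so far, and the rise was 0.78 ± 0.10 (adjusted p = 0.00192), with a second probe that rose by 1.18. Zfp365, Zfp296, Zfp37 and Zfp367 were the 4 of the 23 called genes whose call held under all 17 alternatives run.

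The other 6 rises were smaller and less stable. Zfp472 read 7.14, 6.68 and 6.67 untreated and 7.33, 7.54 and 7.56 with DAC. Untreated plate 1 was the highest of its group and came closest to the DAC plates, and the rise was 0.65 ± 0.16 (adjusted p = 0.0262). The second probe of Zfp472 stood at 0.54 and was not called. Zfp382, whose human counterpart ZNF382 is reported as silenced by methylation in carcinomas, read 5.19, 5.64 and 5.62 untreated and 6.18, 6.21 and 5.97 with DAC. Here untreated plate 1 was the lowest of the 6, and the rise was 0.63 ± 0.15 (adjusted p = 0.0269). Zfp97 rose by 0.58 ± 0.14 (adjusted p = 0.0279), from 8.34 ± 0.11 to 8.93 ± 0.23 (SD, n = 3). Zfp295, now Zbtb21, a BTB-type repressor, rose by 0.47 ± 0.13 (adjusted p = 0.0475), and a second probe by 1.01. Zfp607, matched to Zfp607a, rose by 0.38 ± 0.11 (adjusted p = 0.0486), while its second probe stood at -0.06. All 5 of these calls, and that of Zfp809 below, were lost with median scaling, and without untreated plate 2 and without DAC plate 2.

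**Figure D2:**
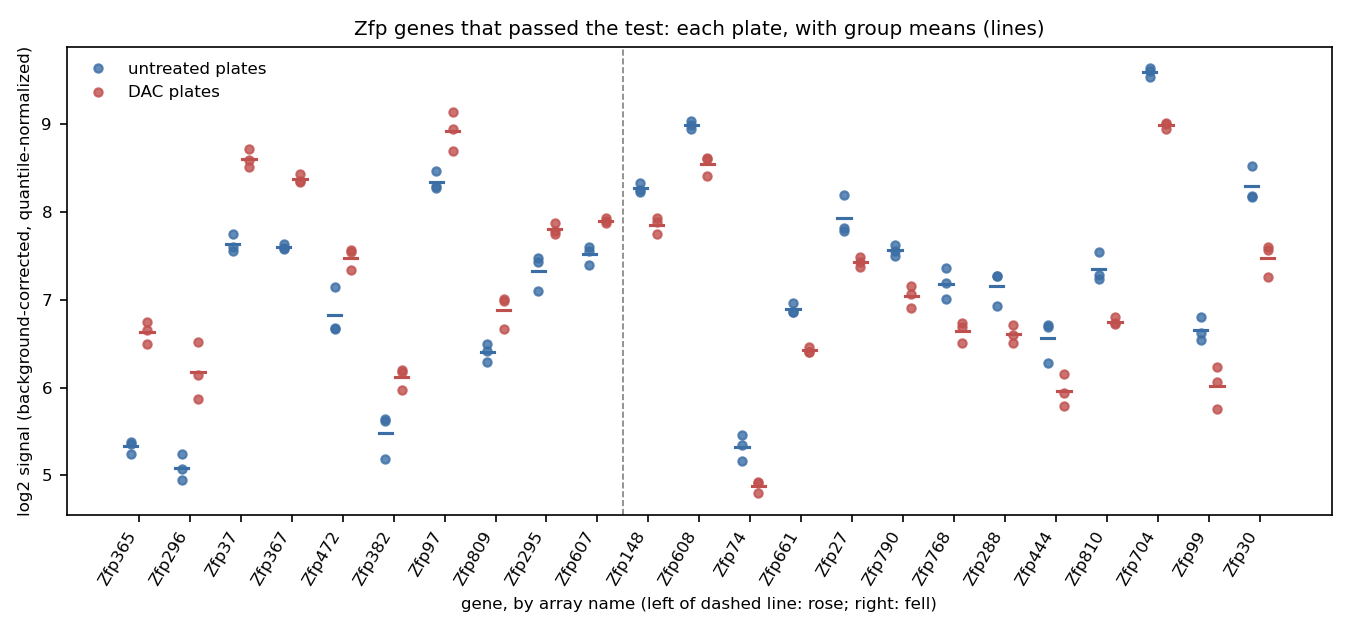
Log2 signal of each plate (points) and group means (lines) for the 10 Zfp genes that rose (left of the dashed line) and the 13 that fell (right), untreated in blue and DAC in red. In each of the 23 genes the 3 DAC values lie on 1 side of the 3 untreated values, with the widest gap for Zfp365; heights of different genes cannot be compared.

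The largest fall was that of Zfp30, a KRAB zinc finger gene linked in the mouse lung to the level of the neutrophil chemokine Cxcl1. It read 8.52, 8.17 and 8.18 on untreated plates and 7.26, 7.56 and 7.60 on DAC plates. No DAC plate came near the untreated ones, and the gene fell by 0.82 ± 0.15 log2 (adjusted p = 0.00826). Its second probe stood at -0.55 and was not called. Zfp99 read 6.80, 6.54 and 6.62 untreated and 6.06, 6.24 and 5.76 with DAC, and fell by 0.64 ± 0.15 (adjusted p = 0.0242). RefSeq gives Zfp99 as a synonym of Zkscan14, and the array also lists Zkscan14 by that name, with 0.09 ± 0.13 (adjusted p = 0.680), so the 2 entries differ. Zfp704, known in mouse as a glucocorticoid-induced gene, had 9.53, 9.60 and 9.64 untreated against 9.01, 9.01 and 8.95 with DAC. These groups were very tight, and it fell by 0.60 ± 0.10 (adjusted p = 0.00645), with a second probe at -0.35 that was not called.

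Zfp444, a SCAN-domain factor, fell by 0.60 ± 0.16 (adjusted p = 0.0381), and untreated plate 1 at 6.27 was nearest to the DAC plates at 6.16, 5.79 and 5.93. Zfp288, now Zbtb20, a repressor active in liver and brain, fell by 0.55 ± 0.14 (adjusted p = 0.0278). It read 6.93, 7.27 and 7.28 untreated and 6.50, 6.60 and 6.71 with DAC, and its second probe, at -0.49, was not called. Zfp608, known to restrain Rag gene expression in mouse thymocytes, fell by 0.45 ± 0.11 (adjusted p = 0.0303), from 8.99 ± 0.04 to 8.54 ± 0.11 (SD, n = 3). The second probe of Zfp608 stood at -0.50 and was not called. Zfp148, which binds G-rich promoter elements, fell by 0.42 ± 0.11 (adjusted p = 0.0368), from 8.27 ± 0.06 to 7.85 ± 0.09, and a second probe fell by 0.63. Zfp768 fell by 0.54 ± 0.13 (adjusted p = 0.0284) and Zfp661 by 0.47 ± 0.10 (adjusted p = 0.0188). Zfp661 was at 6.96, 6.87 and 6.86 untreated and at 6.40, 6.41 and 6.46 with DAC. Among the fallen genes only Zfp30 and Zfp704 kept their call with each of the 6 plates left out in turn. The call on Zfp704 was lost with its probes averaged. With replicate number added as a block in limma, 0 of the 13 passed. In that fit 18 of the 214 were lower at an unadjusted p under 0.05, and the share of all names was not counted.

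Position was not used to choose the genes. Of the 213 placed on the RefSeq gene order, 54 lie on chromosome 7, the most of any chromosome, and 18 on chromosome 17 and 16 on chromosome 13. On chromosome 7, 3 rose and 6 fell of 54, 16.7%, where 14.9% of all 899 names on that chromosome were called. Elsewhere 7 rose and 7 fell of 160, 8.75%, where 16.8% of all names tested, those of chromosome 7 included, were called. The fit without untreated plate 1 gave 5 and 9 on chromosome 7 and 22 and 21 elsewhere. In that fit 17.2% of all names rose and 15.4% fell, and the names of chromosome 7 were not counted apart. With at most 2 other coding genes between neighbours, 94 Zfp genes formed 35 runs of at least 2. The longest run, on chromosome 7, went from Zfp30 to Zfp382 and held 10 of the 214 among 13 coding genes. At its Zfp30 end, Zfp30, Zfp790, Zfp27 and Zfp74 fell, and at its other end Zfp382 rose. Over all names tested 7.10% fell and 9.66% rose, and whether the run differs from them was not tested. The next longest run, 7 genes on chromosome 6 from Zfp786 to Zfp467, held 0 called genes in limma, and its median was 0.11. Without untreated plate 1, Zfp398 (0.76 ± 0.13, adjusted p = 0.00364) and Zfp777 (0.54 ± 0.12, adjusted p = 0.0106) of that run rose, while the run of Zfp30 had the same 4 falls and 1 rise.

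Within the chromosome 7 run, Zfp790 read 7.63, 7.56 and 7.50 untreated and 6.91, 7.07 and 7.16 with DAC, a fall of 0.52 ± 0.12 (adjusted p = 0.0195). Zfp27 read 8.20, 7.78 and 7.82 and then 7.38, 7.49 and 7.43, a fall of 0.50 ± 0.14 (adjusted p = 0.0437), and its second probe fell by 0.52. In both genes every DAC plate was below every untreated plate. Zfp74, near the detection limit, read 5.46, 5.34 and 5.16 and then 4.92, 4.91 and 4.79, and was detected on 2 of the 3 DAC plates; it fell by 0.45 ± 0.12 (adjusted p = 0.0399). Zfp383, which lies between Zfp27 and Zfp74, stood at -0.49 ± 0.17 and did not pass (adjusted p = 0.0906), although its groups did not overlap. Zfp420, listed on the array under a RIKEN clone name and so not among the 214, stood at -0.31 ± 0.17. Between Zfp74 and Zfp382 no measured gene passed: Zfp568, known to restrain a placental Igf2 transcript in mouse, was at 0.01 ± 0.11, Zfp82 at 0.05 ± 0.12, Zfp566 at 0.23 ± 0.26 and Zfp260 at -0.27 ± 0.11. Of the 4 falls, that of Zfp30 was lost only with the replicate number as a block among the 17 alternatives, while those of Zfp790, Zfp27 and Zfp74 were lost under 6, 10 and 11. Zfp74 could be fitted under 15 alternatives, and Zfp790 and Zfp27 under 17. Close relatives in such a run can share probe sequence, and probe sequences were not used here.

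**Figure D3:**
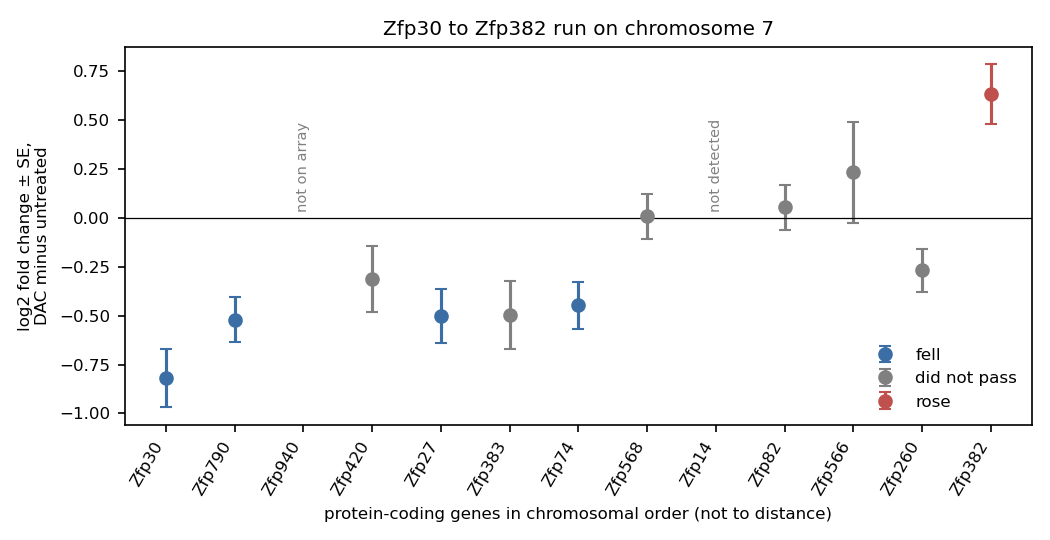
Log2 fold change, DAC minus untreated, with its SE (bars) for the coding genes from Zfp30 to Zfp382 in their order on chromosome 7, not drawn to distance. From Zfp30 (-0.82) to Zfp74 (-0.45) all 6 measured genes lie below 0, and Zfp382 at the other end lies at 0.63; Zfp940 is not on the array and Zfp14 was not detected.

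The upstream bases of the 5 called genes of the run, 4 that fell and then Zfp382, which rose, are shown. They are the 250 bases before the RefSeq start (GRCm38.p6), 5′ to 3′, with every CpG in capitals.
Zfp30 (chr7:29783718-29783967, plus strand): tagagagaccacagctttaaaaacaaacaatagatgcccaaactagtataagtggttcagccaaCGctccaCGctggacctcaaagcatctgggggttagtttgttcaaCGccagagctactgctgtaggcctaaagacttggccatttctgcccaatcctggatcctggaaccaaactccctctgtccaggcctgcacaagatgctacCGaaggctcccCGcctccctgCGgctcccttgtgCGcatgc
Zfp790 (chr7:29815822-29816071, plus strand): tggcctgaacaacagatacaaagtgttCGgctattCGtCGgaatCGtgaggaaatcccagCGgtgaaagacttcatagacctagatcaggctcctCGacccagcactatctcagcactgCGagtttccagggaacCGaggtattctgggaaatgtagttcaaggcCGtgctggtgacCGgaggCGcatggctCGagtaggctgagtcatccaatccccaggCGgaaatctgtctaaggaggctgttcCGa
Zfp27 (chr7:29906533-29906782, minus strand): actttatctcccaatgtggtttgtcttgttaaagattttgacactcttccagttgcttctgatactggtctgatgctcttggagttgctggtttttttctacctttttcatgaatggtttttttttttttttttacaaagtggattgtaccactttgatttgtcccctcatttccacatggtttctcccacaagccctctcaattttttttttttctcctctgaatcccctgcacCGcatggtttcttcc
Zfp74 (chr7:29954066-29954315, minus strand): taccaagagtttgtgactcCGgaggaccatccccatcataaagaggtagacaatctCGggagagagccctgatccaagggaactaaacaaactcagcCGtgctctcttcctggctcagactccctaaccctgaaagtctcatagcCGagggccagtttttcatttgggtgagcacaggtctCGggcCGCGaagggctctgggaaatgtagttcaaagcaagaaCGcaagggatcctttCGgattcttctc
Zfp382 (chr7:30121682-30121931, plus strand): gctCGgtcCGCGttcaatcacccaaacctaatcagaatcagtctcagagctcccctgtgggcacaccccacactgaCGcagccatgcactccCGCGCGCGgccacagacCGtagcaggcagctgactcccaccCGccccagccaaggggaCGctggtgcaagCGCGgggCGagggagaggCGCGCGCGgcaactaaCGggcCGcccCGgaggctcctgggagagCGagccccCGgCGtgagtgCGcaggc
They hold 7, 14, 1, 9 and 25 CpG in the order shown. Zfp27 has 2 windows in RefSeq, of which the first is shown. In the longer 300-base windows used below, the genes of the run that did not pass held 20 (Zfp383), 18 (Zfp82), 14 (Zfp566) and 5 (Zfp260) CpG.

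On chromosome 9, Zfp809 and Zfp810 lie with 1 coding gene between them and moved in opposite directions. Zfp809, known in mouse for recognising the primer binding site of murine leukaemia virus and silencing it, read 6.29, 6.42 and 6.49 untreated and 6.99, 7.01 and 6.66 with DAC. It rose by 0.49 ± 0.13 (adjusted p = 0.0430). Zfp810 read 7.28, 7.54 and 7.24 untreated and 6.72, 6.73 and 6.81 with DAC, and fell by 0.60 ± 0.12 (adjusted p = 0.0132). In neither gene did the groups overlap, and the call on Zfp810 was lost without untreated plate 2 or DAC plate 2.

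The named roles of Zfp genes were followed through 7 lists, each to be read against the 9.66% of all names that rose and the 7.10% that fell. Among silencers of retroelements and imprinted regions 1 of 4 Zfp genes, Zfp809, rose and 0 fell. Zfp57, which protects imprints in mouse embryos, read 8.39, 9.14 and 9.21 untreated and 8.86, 8.27 and 8.58 with DAC. Its groups overlapped through untreated plate 1 and it did not pass, at -0.34 ± 0.24 (adjusted p = 0.379, limma). Without that plate it fell by 0.61 ± 0.17 (adjusted p = 0.0251, limma). That fit takes its untreated spread from the close plates 2 and 3 alone, here and in the lists below. Zfp445, another keeper of imprints, was at 0.12 ± 0.33, with untreated plate 1 at 7.53 and the other untreated plates at 8.83 and 8.81. With that plate left out the list had 1 rise and 1 fall. Its median with all plates was 0.07, beside -0.02 for all names.

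Of 4 genes of pluripotency and germ cells, Zfp296 and Zfp37 rose and 0 fell, with a median of 0.42, and the counts were the same without untreated plate 1. The others were Zfp281 at -0.14 ± 0.12 and Zfp39 at -0.13 ± 0.20. Zfp42, Zfp462, Zfp352, Zfp541, Zfp59, Zfp105 and Zfp474 of the same list were on the array and were not detected on 3 arrays, so the 4 measured genes are not the whole list. Zfp42, a marker of embryonic stem cells also called Rex1, was detected on 1 untreated and 1 DAC plate, at 4.85, 4.86 and 4.70 untreated and 5.50, 4.67 and 4.52 with DAC.

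Genes of RNA binding, ribosomes and splicing gave 0 rises and 0 falls among 10 by limma, with a median of 0.23, and 3 and 1 without untreated plate 1. Closest to the threshold were Zfp593, a ribosome biogenesis factor, at 0.59 ± 0.18 (adjusted p = 0.0532) and Zfp346, which binds double-stranded RNA, at 0.48 ± 0.14 (adjusted p = 0.0545). Zfp593 read 6.58, 6.07 and 6.11 untreated and 6.61, 7.01 and 6.92 with DAC, so that untreated plate 1 nearly reached the lowest DAC plate. Both rose without untreated plate 1, by 0.76 ± 0.14 and 0.57 ± 0.14, as did Zfp259, which is a further member of the list. Zfp36, tristetraprolin, which marks cytokine mRNAs for decay, read 9.60, 9.61 and 9.62 untreated and 9.97, 9.77 and 10.01 with DAC, at 0.31 ± 0.11 (adjusted p = 0.104). Zfp106 (0.47), Zfp259 (0.23), Zfp326 (0.23), Zfp706 (0.12), Zfp598 (0.02), Zfp207 (-0.14) and Zfp162 (-0.55) completed the list. Zfp162, the splicing factor Sf1, fell by 0.87 ± 0.16 without untreated plate 1 (adjusted p = 0.00423), and the array's own Sf1 entry was at -0.22 ± 0.30 with all plates.

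Among 11 general transcription factors Zfp148 fell and 0 rose, with a median of 0.03. Without untreated plate 1, Zfp64 (0.50 ± 0.11, adjusted p = 0.0112) and Zfp592 (0.56 ± 0.13, adjusted p = 0.0131) rose as well. Zfp143, which activates many housekeeping and snRNA promoters, was at -0.23 ± 0.12, Zfp64 at 0.37 ± 0.14 and Zfp592 at 0.43 ± 0.15, and the others (Zfp161, Zfp91, Zfp238, Zfp263, Zfp652, Zfp335 and Zfp687) lay between -0.24 and 0.22. Of 8 genes tied to epithelium or carcinoma Zfp365 rose and Zfp704 fell, with a median of -0.28. Without untreated plate 1, Zfp703 (-0.49 ± 0.13, adjusted p = 0.0251) and Zfp516 (-0.69 ± 0.14, adjusted p = 0.00720) fell too. Zfp217, amplified in human carcinomas, was at -0.08 ± 0.19 and detected on 3 arrays, Zfp703, a breast cancer gene in human, at -0.34 ± 0.17, Zfp521 at -0.35 ± 0.14, Zfp516 at -0.37 ± 0.26, Zfp467 at -0.22 ± 0.19 and Zfp36, also on this list, at 0.31. Zfp750, Zfp503 and Zfp423 of that list were not detected on 3 arrays. Of 5 genes of the cell cycle, Zfp367 rose and 0 fell, with a median of -0.14, and without untreated plate 1 the counts were the same. Zfp207, a spindle protein, Zfp143, Zfp318 (-0.07) and Zfp292 (-0.32) did not pass. Of 3 genes tied to interferon or NF-kB signalling, Zfp36, Zfp313 (-0.12) and Zfp91 (0.22 ± 0.36), 0 passed in limma, with or without untreated plate 1. With all plates Zfp36 was the 1 with an unadjusted p under 0.05, as had 4722 of all 14952 names. The medians of 3 lists changed sign when that plate was left out: to -0.12 for the silencers, -0.08 for the general transcription factors and -0.24 for the interferon and NF-kB genes. Zfp91, a ubiquitin ligase of the NF-kB pathway, read 7.87, 9.22 and 9.33 untreated, so untreated plate 1 alone made its spread, and 9.28, 9.08 and 8.73 with DAC.

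**Figure D4:**
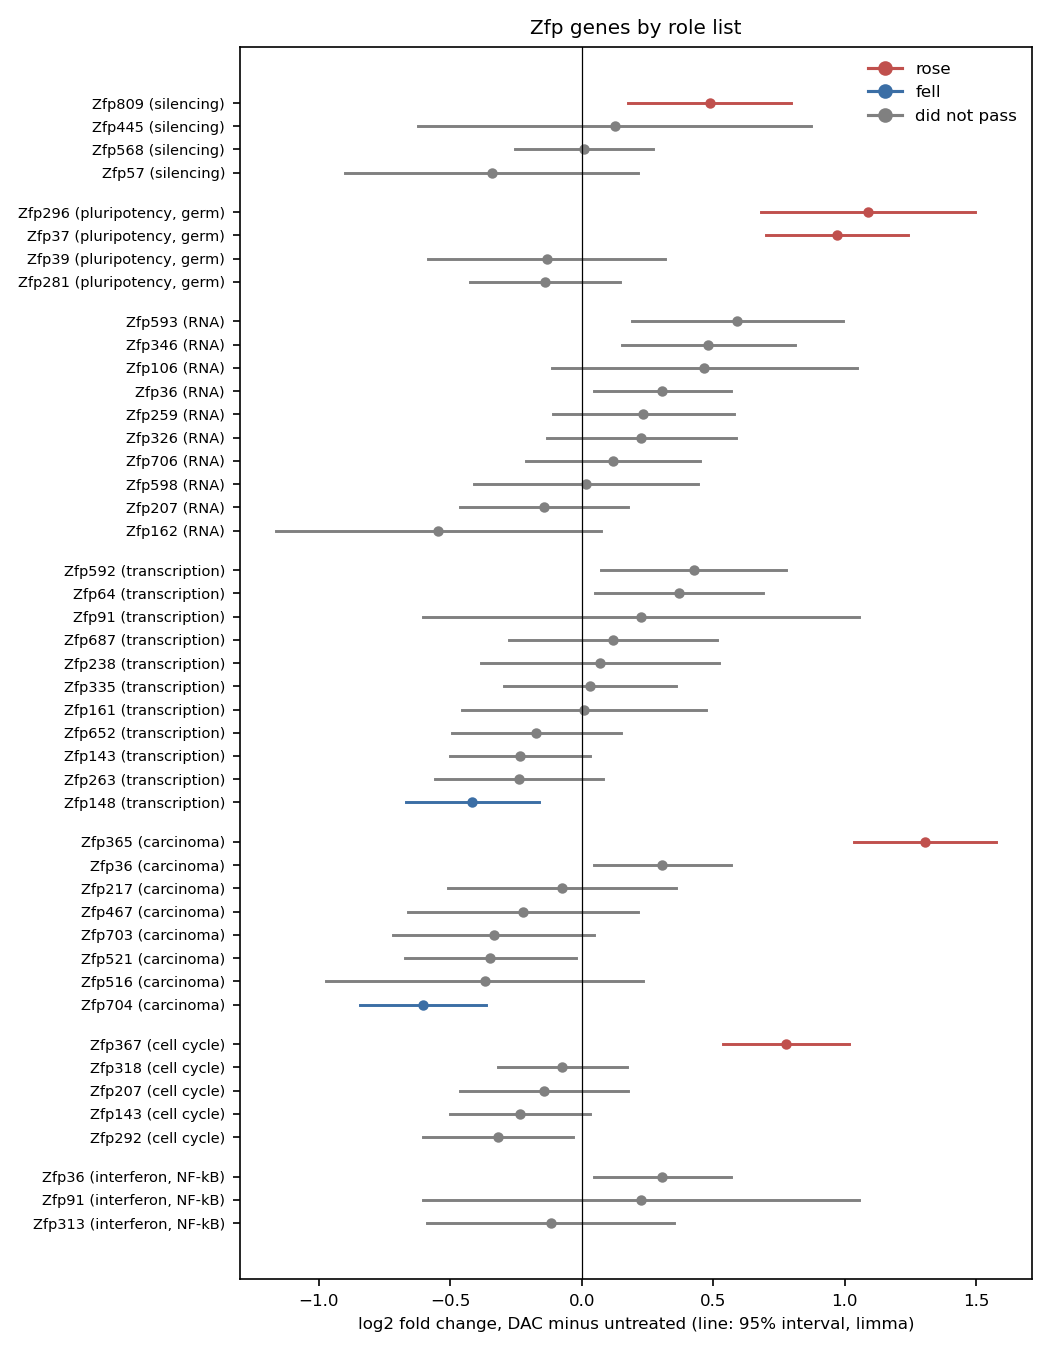
Log2 fold change, DAC minus untreated, with its 95% interval from limma for the Zfp genes of each role list, red where the gene rose, blue where it fell and grey where it did not pass. Most intervals include 0 or reach close to it, and those of Zfp365 (1.04 to 1.57), Zfp296 (0.68 to 1.49) and Zfp37 (0.70 to 1.24) lie farthest to the right.

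No Zfp name was switched on from below detection. Over all 30854 names, 293 (0.950%) had a probe detected on all 3 DAC plates and none on any untreated plate, and 0 of the 282 Zfp names did. In reverse it was 62 of all names (0.201%) and 1 Zfp gene, Zfp619, which was detected on each untreated plate at 5.01, 4.81 and 5.08 and on no DAC plate, at 4.60, 4.75 and 4.53. Its level was at least 1.12-fold lower with DAC, taking each DAC plate at the lowest signal detected on it (4.76 to 4.85; mean 4.80, against 4.97 untreated), and the difference did not pass (adjusted p = 0.102). Of the 214 genes 187 were detected on all 6 arrays, 5 on 5, 11 on 4 and 11 on 3. Among the 68 names outside the rule, 53 were detected on no array, 9 on 1 and 6 on 2. Just inside the threshold, the 11 genes on 3 arrays had a mean raw intensity from 59.6 to 63.5, with Zfp764 and Zfp651 the highest, and just outside, the 6 names on 2 arrays had 55.9 to 62.4, with Zfp42 and Zfp617 the highest.

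Several probes were detected for 73 of the 214 genes. Calls on these other probes came from a separate limma fit of all 21415 detected probes, with Benjamini-Hochberg over those probes. Of the 23 called genes 11 had another detected probe, and for 5 of them that probe was called the same way. In 10 of the 11 it had the same sign, the exception being Zfp607, and in 0 it was called the other way by limma. Among genes whose brightest probe did not pass, another probe fell for Zfp219 (by 0.46), Zfp62 (by 0.51) and Zfp667 (by 0.65), and another rose for Zfp276 (by 1.30); these 4 were named after their values were seen. For 14 Zfp genes the same current gene was also measured under another array name, 3 of them called. These were Zfp99 (above), Zfp608, whose other entry was at -0.39 ± 0.15, and Zfp661, whose other entry was at -0.19 ± 0.24, and no other entry of the 3 passed. Zfp87 did not pass, while its other entry fell by 1.01.

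A broad list of KRAB silencing cofactors, which also holds the chromatin and methylation factors Daxx, Uhrf1 and Dnmt1, was measured beside the Zfp genes. Of 24 on the list 21 were measured, of which 5 rose and 1 fell, with a median of 0.08, where 9.66% of all names rose and 7.10% fell. It was 6 and 2 without untreated plate 1, with Morc2a (0.48 ± 0.13) among the rises and Trim24 (-0.45 ± 0.12) among the falls. Of all names 17.2% rose and 15.4% fell in that fit. Trim28, the corepressor, was at 0.10 ± 0.13 (adjusted p = 0.658), from 11.68 ± 0.12 untreated, and Setdb1, the methyltransferase, at -0.15 ± 0.14 (adjusted p = 0.507). Cbx3, Morc3, Sumo2, Chd3, Chd4 and Hdac2 of the list did not pass either. Daxx, a chaperone of histone H3.3, rose by 1.28 ± 0.14 (adjusted p = 0.000704), and Uhrf1, which brings Dnmt1 to replicated DNA, by 1.25 ± 0.16 (adjusted p = 0.00164). Dnmt1, the maintenance methyltransferase, rose by 0.82 ± 0.15, Cbx5, a heterochromatin protein, by 0.78 ± 0.23 and Atf7ip, a partner of Setdb1, by 0.58 ± 0.13. Trim33, a relative of Trim28, fell by 0.53 ± 0.13. Daxx and Uhrf1 kept their calls under all 17 alternatives, and the call on Cbx5 (adjusted p = 0.0494) was lost under 11 of them. Atrx, the partner of Daxx, was at -0.51 ± 0.28 and did not pass.

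Promoter letters were counted in RefSeq windows of 300 bases, 250 before and 50 after a gene start, of which 175 Zfp genes had at least 1 (the first listed was used). The Zfp windows held a median of 17 CpG, against 21 in the windows of 9001 tested genes and 7 in all 27025 windows. At least 10 CpG were found in 81.1% of the Zfp windows and 81.9% of those of tested genes. The 10 risen genes had a median of 15 CpG (5 to 36), the 10 fallen genes with a window 16 (1 to 35) and the 155 that did not pass 17. These counts describe the letters of 1 window per gene and say nothing of methylation.

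Related finger families in the same fit were small. Their counts stand beside 9.66% of all names that rose and 7.10% that fell. Of 19 genes named Zbtb and a number, 1 rose and 0 fell, with a median of 0.19. That gene, Zbtb32, named after its value was seen, rose by 1.71 log2. Of 11 Zscan and Zkscan genes 0 rose and 1 fell, with a median of -0.07. The 8 names of Zfp with a number and letters gave 0 calls by limma and a median of -0.28. Of these 8, 3 had an unadjusted p under 0.05, as had 4722 of all 14952 names. Without untreated plate 1 the counts were 4 and 0 for Zbtb, 0 and 2 for Zscan and Zkscan, and 1 and 3 for Zfp with letters. All names then gave 17.2% rises and 15.4% falls. The difference between these families and the 214 Zfp genes was not tested.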

How the data were processed

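Trizol RNA of 3 untreated and 3 DAC plates was made into biotin cRNA (Ambion MessageAmp) and read on Illumina arrays, per the labels' protocols. The scanner software is not given in the sources used here. Per the file headers, the deposited table gives for each probe a mean bead intensity (linear, not background-subtracted or scaled), the standard error of that bead signal, a bead number (a whole-number score) and a detection p-value. What the p-value was computed against is not stated, and negative control beads were assumed. A second deposited table of intensity values was not used, because its identifiers are paired with no gene name here. The number of arrays limits the precision.

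Intensities were corrected by limma's neqc (limma 3.58.1, R 4.3.3; negative controls inferred from detection p, offset 16), quantile-normalized and taken to log2. Probes with detection p under 0.05 on at least 3 of 6 arrays were kept (21415 of 45281), and the probe with the highest mean intensity stood for each of 14952 array names. Groups were compared with lmFit and eBayes without covariates, Benjamini-Hochberg over all names, and "rose" and "fell" mean an adjusted p under 0.05. SE, SD and fold changes are on the log2 scale. The fit was also run on simulated data with independent noise on each plate. Such data hold no plate that stands apart, so they cannot show how stable the calls are here. Names were matched to RefSeq (GRCm38.p6): of 30854, 16223 matched a symbol, 5684 a synonym and 8947 neither; it gave names, gene order and promoter sequences, and the build of the array design is not stated. Named genes were the 15 largest rises and falls among Zfp calls (all, where fewer), genes seen in 1 group only, role list members, called cofactors with Trim28 and Setdb1, and those at the detection threshold; neighbours in the run of Zfp30 were added after their values were seen. The Zfp genes, lists and tests were chosen with earlier results of these data known. Same-numbered plates of the 2 groups did not deviate together (r = -0.61, -0.10 and -0.48), so the replicate number was used only as an alternative. A planned split by KRAB motif was not run because no protein sequences were used here.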

Additional observations from a re-analysis of the deposited data

How the results depend on the processing

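The counts of called Zfp genes (10 rose, 13 fell) depended on the processing. With median scaling 4 rose, without the detection filter 6, with the replicate number as a block 4, with limma's array weights 50, and with untreated plates 2 and 3 averaged, a fit chosen after seeing the data, 5. The falls were 0 with the replicate block (limma), 59 with array weights and 3 with those plates averaged. At an unadjusted p under 0.05 (limma) the block gave 18 falls, and the share of all names was not counted. Leaving out 1 plate at a time gave 4 to 27 rises and 2 to 30 falls, the highest of both without untreated plate 1. Array weights called 50.9% of the Zfp genes and 52.6% of all names, and the block 1.87% and 5.82%. Array weights gave that plate 0.168 and untreated plate 2 a weight of 7.09. The other settings (no background correction, an offset of 50, cyclic loess, detection on all 6 arrays or at p under 0.01, and probe averages) stayed within 1.5 times of both counts. All 23 called genes kept their sign in each setting in which they were tested. Array number and plates whose independence is not stated limit the precision, and genes near background have compressed folds. The planned split by KRAB motif was not run.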
